A study of Mus musculus with 12 samples.

Results

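TGF-beta signalling genes were followed in microglia sorted from mouse brains with or without stroke and with or without a knockout of *Hdac3* in microglia. The 10 genes were chosen by symbol, as *Tgfb1*, *Nrros*, *Tgfbr1*, *Tgfbr2*, *Smad2*, *Smad3*, *Smad4*, *Smad7*, *Ski* and *Skil*, and all 10 were found among the 55401 genes of the count files and passed the filter on low counts. RNA-seq was performed on 12 libraries of 4 groups (n = 3 each), the wild type and the microglial knockout after sham surgery (WT-Sham, miKO-Sham) or after stroke (WT-tFCI, miKO-tFCI). Stroke was transient focal cerebral ischemia (tFCI), a 60-min occlusion of the middle cerebral artery, and CD45int CD11b+ cells were sorted on day 3. Both genotypes carried Hdac3 loxp/loxp and differed at the *Cx3cr1* locus, which was wt/wt in WT mice and CreER/wt in miKO mice, so that miKO mice had a single intact *Cx3cr1* allele and no WT group carried CreER. All mice were male and received tamoxifen for 5 days at 6 to 8 weeks of age, surgery followed at least a month later, and each library pooled cells of 3 to 4 hemispheres. The p-values therefore measure the spread between pooled libraries.

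TGF-beta is released as a latent complex, and active ligand joins the type II receptor TGFBR2 to the type I receptor TGFBR1, which phosphorylates SMAD2 and SMAD3. These bind SMAD4 and enter the nucleus to regulate transcription, while SMAD7 blocks the receptor, and SKI and SKIL (SnoN) repress SMAD-bound genes together with histone deacetylase complexes. In the brain, TGF-beta1 is needed to keep microglia in their homeostatic state, and NRROS (LRRC33) anchors latent TGF-beta1 on microglia and macrophages.

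Promoter windows are shown for *Nrros* and *Tgfbr2*, which were higher in miKO-Sham than in WT-Sham, and for *Tgfbr1*, the member with the largest fall after tFCI in WT mice. Each window holds the 250 bases before the RefSeq start site on the strand of the gene (GRCm38.p6), at chr16:32165595-32165844 (minus strand), chr9:116175364-116175613 (minus strand) and chr4:47352972-47353221 (plus strand). Capitals mark matches, on either strand, to CAGAC (the SMAD box) and GAGGAA (the core of the PU.1 motif), which do not overlap each other in these windows. TGANTCA (AP-1) was searched on both strands as well.
Nrros: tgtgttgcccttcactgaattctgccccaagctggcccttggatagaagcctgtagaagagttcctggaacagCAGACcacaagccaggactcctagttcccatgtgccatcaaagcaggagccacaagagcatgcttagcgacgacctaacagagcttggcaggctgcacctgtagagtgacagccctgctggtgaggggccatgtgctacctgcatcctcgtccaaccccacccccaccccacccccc
Tgfbr2: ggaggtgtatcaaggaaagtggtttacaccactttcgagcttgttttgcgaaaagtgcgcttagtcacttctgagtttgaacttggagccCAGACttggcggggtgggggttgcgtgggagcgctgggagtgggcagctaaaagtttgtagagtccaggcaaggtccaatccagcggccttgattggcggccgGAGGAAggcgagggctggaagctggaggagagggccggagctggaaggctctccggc
Tgfbr1: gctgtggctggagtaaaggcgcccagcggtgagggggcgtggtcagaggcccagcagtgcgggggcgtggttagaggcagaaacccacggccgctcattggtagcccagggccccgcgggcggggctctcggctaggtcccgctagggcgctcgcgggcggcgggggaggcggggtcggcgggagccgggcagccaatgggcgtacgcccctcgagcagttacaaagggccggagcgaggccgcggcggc
The *Nrros* window held a single CAGAC, the *Tgfbr2* window a CAGAC and a GAGGAA, and the *Tgfbr1* window none of the 3 motifs. Among 32851 RefSeq windows of the same length, 42.2% held CAGAC, 23.2% held GAGGAA and 6.75% held TGANTCA. G and C made up 58.4% of the *Nrros* and *Tgfbr2* windows and 74.8% of the *Tgfbr1* window, against a median of 52.4% over all windows. The 3 other members with a window, *Tgfb1*, *Smad3* and *Ski*, had 75.2%, 69.2% and 87.6% G and C and none of the 3 motifs. The *Ski* window overlaps the annotated *Ski* gene itself, so that it does not lie wholly upstream of the gene, and its sequence is not shown.

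Between 7697864 and 9452222 counts fell on genes per library. *Hdac3* CPM (counts scaled to the size of each library, with TMM factors) was 34.98, 44.03 and 46.4 in WT-Sham against 25.8, 24.97 and 20.9 in miKO-Sham, and 53.98, 52.9 and 43.9 in WT-tFCI against 36.03, 27.1 and 28.9 in miKO-tFCI, so that the genotypes did not overlap within either surgery. The *Hdac3* level in miKO was 0.569 times that of WT after sham surgery and 0.611 times after tFCI, so that its RNA was reduced but not absent. Replicate 1 of each group came from batch 1 and replicates 2 and 3 from batch 2. miKO-Sham replicates 1 and 2 were the most alike of all replicate pairs although they came from different batches (chi-square per degree of freedom 2.82, against 37.8 and 40.8 with replicate 3). They differed by more than sampling noise and were kept apart. The labels do not say whether they came from separate pools of mice, and if they did not, miKO-Sham holds 2 independent samples rather than 3. Calls of the members against miKO-Sham are therefore given below with and without each of them. miKO-tFCI replicate 1 stood farthest from the other replicates of its group (54.9 and 76.6). Microglia markers were abundant in all libraries, with summed CPM of 29282 to 38678 in WT-Sham, 27254 to 32296 in miKO-Sham, 20942 to 23284 in WT-tFCI and 10484 to 20267 in miKO-tFCI.

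Per kilobase of exon, *Tgfbr1* had the highest level of the 10 genes in WT-Sham, at 142 ± 13.5 CPM per kb (SD, n = 3), ahead of *Nrros* at 84.5 ± 1.46. *Tgfb1* (43.7), *Ski* (42.3), *Tgfbr2* (36.4), *Skil* (28.97) and *Smad7* (27.3) followed, each overlapping the next over libraries. *Smad4* (15.6) and *Smad3* (15.6) overlapped as well, and *Smad2* was lowest at 7.43 ± 0.671. In miKO-Sham the first places were exchanged, with *Nrros* at 167 ± 9.91 and *Tgfbr1* at 102 ± 4.34 CPM per kb and no overlap between them. In WT-tFCI, *Tgfbr1* (60.3 ± 2.01) and *Nrros* (58.3 ± 8.54) overlapped. In miKO-tFCI, *Nrros* (77.8 ± 19.8), *Tgfbr1* (52.03 ± 18.5), *Tgfbr2* (37.00 ± 12.1), *Ski* (32.95 ± 6.18) and *Tgfb1* (27.04 ± 3.25) each overlapped the next. By their means per kb, *Smad2*, *Smad3* and *Smad4* lay below the ligand, the anchor, both receptors and *Ski* in every group.

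**Figure D1:**
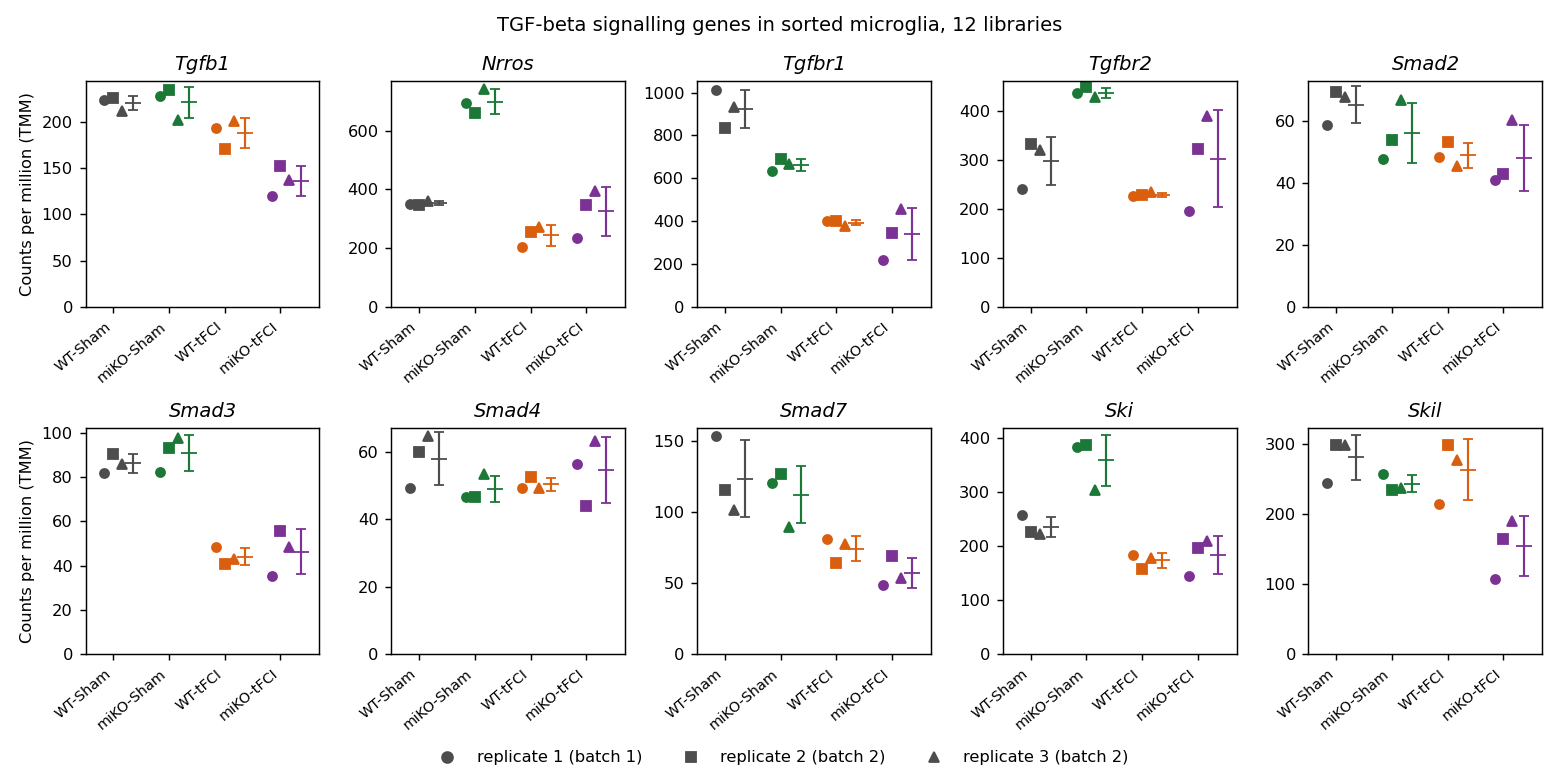
CPM (y axis) of the 10 genes in each of the 12 libraries, by group (x axis). Markers tell the replicates apart (replicate 1 is batch 1), and the bar beside them is the mean ± SD. *Nrros* lay at 659 to 742 in miKO-Sham against 349 to 360.1 in WT-Sham, and *Tgfbr1* reached at most 459 in the tFCI libraries.

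The members that changed in WT microglia after tFCI all fell. Compared with WT-Sham, 6 of the 10 genes were lower in WT-tFCI and none was higher (edgeR, Benjamini-Hochberg adjusted p under 0.05 over all 16451 genes tested, a difference named called from here on), and DESeq2 also gave 6 lower and none higher. Over all genes tested, edgeR called 15.4% lower and 23.5% higher. The median log2 fold change of the 10 genes was -0.42, against 0.02 over all genes tested. *Tgfbr1* and *Smad3* fell most, *Smad7*, *Nrros*, *Ski* and *Smad2* also fell, and *Tgfb1*, *Tgfbr2*, *Smad4* and *Skil* did not pass the test.

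*Tgfb1*, which encodes TGF-beta1, had 223, 226 and 212 CPM in WT-Sham and 193, 170.2 and 201 in WT-tFCI. All WT-tFCI libraries lay below all WT-Sham libraries, yet the log2 fold change of -0.23 ± 0.13 (SE) was not called (adjusted p = 0.184). *Nrros* had 351, 349 and 360.1 CPM in WT-Sham and 203, 256 and 271 in WT-tFCI. The groups did not overlap, and the level was 0.683 times that of WT-Sham (log2 fold change -0.55 ± 0.15, adjusted p = 0.0107). Without WT-Sham replicate 1 or WT-tFCI replicate 1, the adjusted p of *Nrros* was 0.0518 or 0.0586 (0.000922 to 0.0586 over all 21 alternatives).

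*Tgfbr1*, the type I receptor kinase, had 1011, 834 and 932 CPM in WT-Sham and 402, 401 and 379 in WT-tFCI. The WT-tFCI values lay close together and far below WT-Sham. The level was 0.425 times that of WT-Sham (log2 fold change -1.24 ± 0.20, adjusted p = 0.000211), with -1.33 in batch 1 alone and -1.18 in batch 2 alone. *Tgfbr2*, the receptor that binds the ligand, had 242, 332 and 319.8 CPM in WT-Sham and 226, 228 and 234 in WT-tFCI. Its groups did not overlap, but WT-Sham replicate 1 was close to the WT-tFCI libraries, and the log2 fold change of -0.36 ± 0.17 was not called (adjusted p = 0.1095; 0.0146 to 0.198 over 21 alternatives). Without miKO-tFCI replicate 1 or 3, the adjusted p was 0.0183 or 0.0428. These libraries are in neither group compared but share the filter, scaling, batch term and error of the fit.

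Among the receptor-activated SMADs, *Smad3* had 82.1, 90.8 and 85.9 CPM in WT-Sham and 48.5, 40.97 and 42.9 in WT-tFCI. The groups were well apart, and the level was 0.514 times that of WT-Sham (log2 fold change -0.96 ± 0.15, adjusted p = 0.000161). *Smad2* had 58.5, 69.5 and 67.8 CPM in WT-Sham and 48.2, 53.3 and 45.3 in WT-tFCI. Its smaller fall (log2 fold change -0.41 ± 0.15, adjusted p = 0.0432) was no longer called when any WT-Sham library or WT-tFCI replicate 2 or 3 was left out (adjusted p 0.05202 to 0.118). *Smad4*, the shared partner, had 49.3, 60.1 and 64.8 CPM in WT-Sham and 49.4, 52.6 and 49.2 in WT-tFCI. These groups overlapped (log2 fold change -0.20 ± 0.15, adjusted p = 0.3105).

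Of the inhibitors, *Smad7*, which is itself a target of the pathway, had 154, 115 and 101 CPM in WT-Sham and 80.9, 64.1 and 77.5 in WT-tFCI. The groups did not overlap, and the log2 fold change was -0.73 ± 0.18 (adjusted p = 0.00596). *Ski* had 257, 227 and 221 CPM in WT-Sham and 184, 158 and 178 in WT-tFCI, again without overlap (log2 fold change -0.44 ± 0.16, adjusted p = 0.0398). The call of *Ski* was lost without WT-Sham replicate 1, WT-tFCI replicate 1 or 2, or miKO-tFCI replicate 2 (adjusted p 0.0502 to 0.116). *Skil* had 244, 299 and 299 CPM in WT-Sham and 214, 298 and 277 in WT-tFCI, which overlapped (log2 fold change -0.10 ± 0.16, adjusted p = 0.641). Without WT-Sham replicate 1, 3 of the 10 genes were called, *Tgfbr1*, *Smad3* and *Smad7*, and these were also the ones whose log2 fold change passed the size limit of 0.58 used in the study.

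In miKO microglia 8 of the 10 genes were lower after tFCI and none was higher by edgeR or DESeq2. The comparison was with miKO-Sham, so that it shares no library with the one in WT mice. Over all genes tested, edgeR called 17.7% lower and 24.5% higher, and the median log2 fold change of the 10 genes was -0.83 against 0.03 over all genes tested. *Nrros* fell most, followed by *Tgfbr1*, *Smad3*, *Smad7* and *Ski*, then *Tgfb1*, *Skil* and *Tgfbr2*, whereas *Smad2* and *Smad4* did not pass the test. Without miKO-Sham replicate 1, 7 of the 10 genes were called, with *Tgfbr2* no longer among them, and without replicate 2, 8 were called.

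*Nrros* had 695, 659 and 742 CPM in miKO-Sham and 234, 347 and 395 in miKO-tFCI. No library of miKO-tFCI came near miKO-Sham, and the level was 0.458 times that of miKO-Sham (log2 fold change -1.13 ± 0.15, adjusted p = 5.41e-05). *Tgfb1* had 228, 234 and 202 CPM in miKO-Sham and 119.6, 152 and 137 in miKO-tFCI. Here the groups were apart and the fall was called (log2 fold change -0.70 ± 0.13, adjusted p = 0.000688). *Tgfbr1* had 634, 690.2 and 667 CPM in miKO-Sham and 217, 344 and 459 in miKO-tFCI. Its miKO-tFCI values spread widely, with replicate 1 lowest, and all lay below miKO-Sham (log2 fold change -0.98 ± 0.20, adjusted p = 0.00111). *Tgfbr2* had 436, 449 and 428 CPM in miKO-Sham and 196, 323 and 390.2 in miKO-tFCI. Its fall (log2 fold change -0.57 ± 0.17, adjusted p = 0.0147) was -1.15 in batch 1 but -0.30 in batch 2, and without miKO-Sham replicate 1 it was not called (adjusted p = 0.0916; 0.000668 to 0.0916 over 21 alternatives).

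*Smad3* had 82.2, 93.2 and 97.7 CPM in miKO-Sham and 35.3, 55.5 and 48.3 in miKO-tFCI, without overlap (log2 fold change -0.98 ± 0.15, adjusted p = 0.000125). *Smad2* had 47.8, 53.97 and 66.7 CPM in miKO-Sham and 40.99, 42.7 and 60.3 in miKO-tFCI, and *Smad4* had 46.8, 46.6 and 53.4 against 56.4, 43.99 and 63.4. Both overlapped between groups (log2 fold changes -0.23 ± 0.15 and 0.16 ± 0.15, adjusted p = 0.245 and 0.412). Without miKO-tFCI replicate 3 the fall of *Smad2* was called (adjusted p = 0.04599; 0.04599 to 0.596 over 21 alternatives). The inhibitor *Smad7* had 121, 127 and 89.7 CPM in miKO-Sham and 48.3, 69.1 and 53.8 in miKO-tFCI. *Ski* had 383, 387 and 304 CPM against 144, 196 and 209, and *Skil* had 257, 235 and 237 against 108, 165 and 191. In these 3 genes all miKO-tFCI libraries lay below all miKO-Sham libraries, with log2 fold changes of -0.97 ± 0.19, -0.97 ± 0.16 and -0.69 ± 0.16 (adjusted p = 0.000805, 0.000258 and 0.002704). The fall of *Skil* was -1.25 in batch 1 and -0.41 in batch 2.

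Beside the falls after tFCI, markers of microglia were lower, and markers of several but not all other cell types were higher. Of 10 microglia markers, 7 were called lower in WT-tFCI and 10 in miKO-tFCI, each against its sham group, with median log2 fold changes of -1.05 and -1.18. Monocyte/macrophage markers summed to 16.7 to 109.9 CPM in WT-Sham, 67.1 to 133 in miKO-Sham, 390.0 to 686 in WT-tFCI and 485 to 1064 in miKO-tFCI (5 of 10 called higher after tFCI in WT and 8 of 10 in miKO). Endothelial markers summed to 23.98 to 32.6, 14.1 to 29.8, 85.8 to 266 and 167 to 487 CPM in the same order of groups (8 and 10 of 10 called higher). Astrocyte markers summed to 184 to 201, 122 to 144, 183 to 341 and 239.9 to 726 CPM (7 and 9 of 10 called higher). Fibroblast markers, a list added after values were seen, summed to 13.3 to 20.95, 9.44 to 13.6, 243 to 1077 and 598 to 2082 CPM (6 and 7 of 7 tested called higher), with *Dpt* at 0 in miKO-Sham and WT-tFCI. In both tFCI groups replicate 1 had the highest sums of these 4 lists and the lowest sum of microglia markers. Most of the monocyte/macrophage sum in WT-tFCI was *Fn1* (446, 296 and 365 CPM), which is also on the list of TGF-beta targets below. Of border-associated macrophage markers, 3 of 10 were called higher in WT and 7 in miKO, and none lower.

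Of 7 oligodendrocyte markers tested, 5 were called higher and 1 lower after tFCI in each genotype, and of 5 neuron markers 1 was called higher in WT and 3 in miKO, with 1 lower. Neutrophil, dendritic cell, B cell and T cell markers did not share this pattern in WT. Of 9 neutrophil markers tested, none was called higher and 1 lower in WT (sums of 622 to 1229 CPM in WT-Sham and 476 to 536 in WT-tFCI), and 3 higher and 1 lower in miKO. The 1229 was WT-Sham replicate 1, against 622 and 623 in replicates 2 and 3, where most of the sum was *Csf3r*. *Csf3r* had 4524, 5049 and 5718 counts in WT-Sham and 2859, 2932 and 3074 in WT-tFCI. *S100a8* had 2265, 192 and 135 counts and 459, 548 and 532. Both genes are named after their values were seen. Of 8 dendritic cell markers tested, 2 were higher and 2 lower in WT, and 3 and 1 in miKO. Of 4 B cell markers tested, 1 was higher and 1 lower in each genotype, and none of 3 T cell markers was called. In batch 2 alone, which leaves out every replicate 1, *Smad2* lost its call after tFCI in WT and *Tgfbr2* gained one, and in miKO *Tgfbr2* lost its call. The tFCI libraries of batch 2 also had raised sums of monocyte/macrophage, endothelial and fibroblast markers, the last at 243 and 252 CPM in WT-tFCI. Their astrocyte sums were 196 and 183 CPM in WT-tFCI, not above the 184 to 201 of WT-Sham. In miKO-tFCI they were 239.9 and 266, above the 122 to 144 of miKO-Sham. Fewer cells of a type and less RNA per cell cannot be told apart in such bulk libraries, and the part of these markers in the falls was not tested.

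**Figure D2:**
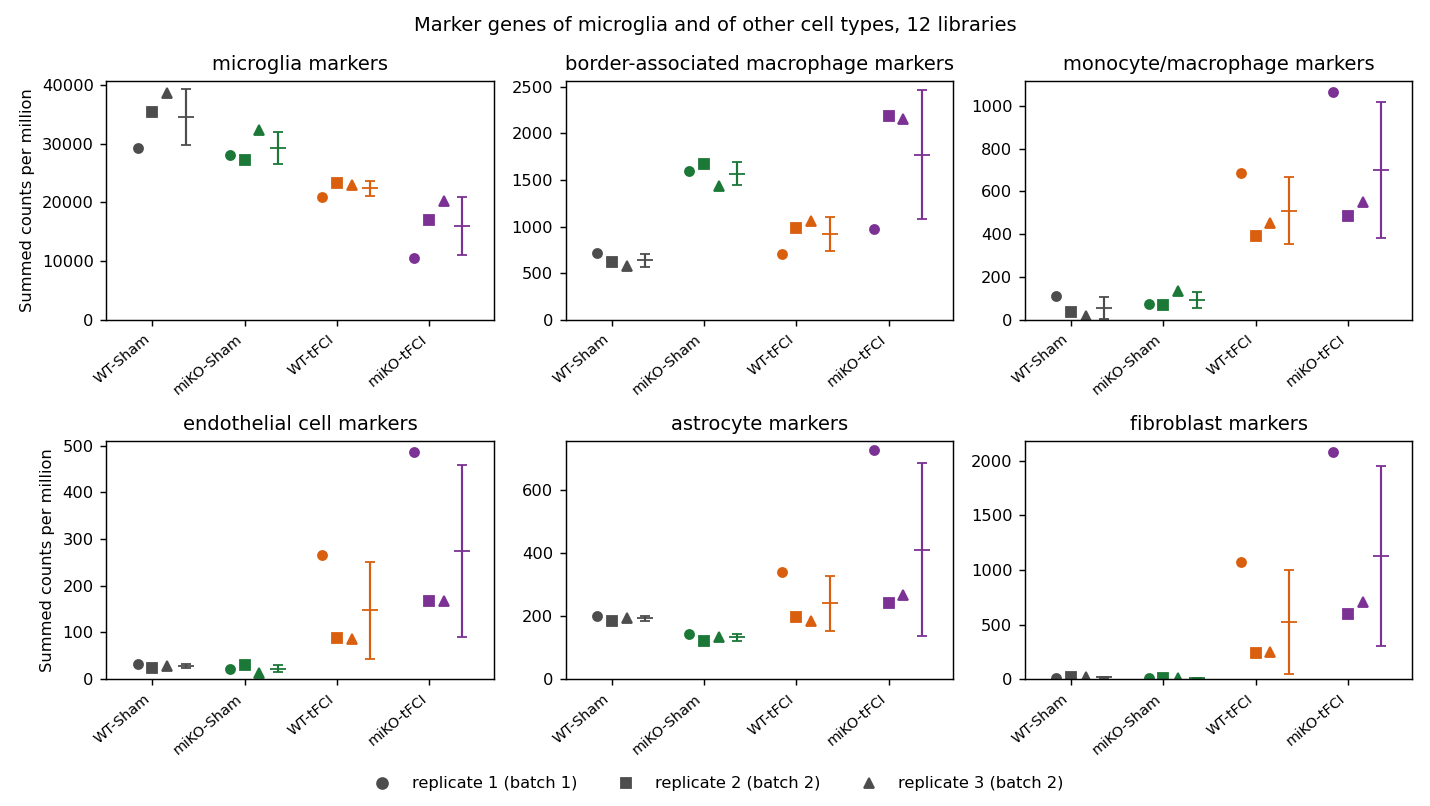
Summed CPM (y axis) of marker genes of 6 cell types in each library, by group (x axis). Microglia markers were lowest in miKO-tFCI replicate 1 (10484), the library in which endothelial (487) and fibroblast (2082) markers were highest.

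Without stroke, *Nrros*, *Ski* and *Tgfbr2* were higher in miKO microglia than in WT microglia. Compared with WT-Sham, these 3 of the 10 genes were called higher in miKO-Sham and none lower, against 9.94% of all genes tested called higher and 8.12% called lower. DESeq2 called 3 higher and 1 lower, and 4 had an unadjusted edgeR p under 0.05. The shares of all genes are those of edgeR at the adjusted p, and none is given for these counts. The median log2 fold change of the 10 genes was -0.06, against 0.04 over all genes tested. The value of each sham library is given above. *Nrros* was at 699 ± 41.4 CPM in miKO-Sham and 353 ± 6.11 in WT-Sham (SD, n = 3), 1.98 times as high and without overlap (log2 fold change 0.98 ± 0.15, adjusted p = 0.000354). It was 0.99 in batch 1, 0.98 in batch 2, and called under all 21 alternatives (0.71 to 1.10), the ones without miKO-Sham replicate 1 (0.87) or 2 (1.08) included.

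*Ski* was at 358 ± 46.7 CPM in miKO-Sham and 235 ± 19.4 in WT-Sham (log2 fold change 0.61 ± 0.16, adjusted p = 0.0144). *Tgfbr2* was at 438 ± 10.4 and 298 ± 48.9 CPM (log2 fold change 0.58 ± 0.17, adjusted p = 0.0287). The groups did not overlap in either gene, but both calls depended on single libraries. That of *Ski* was lost without WT-Sham replicate 2 or 3 or miKO-Sham replicate 1 or 2 (adjusted p 0.0531 to 0.0711), and that of *Tgfbr2* without any of the WT-Sham libraries or without miKO-Sham replicate 1 (0.0684 to 0.148). *Tgfbr1* was at 664 ± 28.3 CPM in miKO-Sham against 925 ± 88.5 in WT-Sham, lower in all libraries but not called (log2 fold change -0.49 ± 0.19, adjusted p = 0.101; 0.00432 to 0.348 over 21 alternatives). Without miKO-tFCI replicate 1 or 3 its adjusted p was 0.01303 or 0.0395. *Tgfb1*, at 221 ± 16.8 and 220.4 ± 7.41 CPM, overlapped between the sham groups, as did *Smad2*, *Smad3*, *Smad4*, *Smad7* and *Skil*. Their log2 fold changes ran from -0.24 to 0.08 (adjusted p 0.297 to 0.982).

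Scaling mattered most in this comparison. With total counts in place of TMM, the median of all genes moved by -0.27 on the log2 scale, and of the 10 genes 1 was called higher (*Nrros*, 0.71) and 4 lower (*Tgfbr1* -0.76, *Smad2* -0.49, *Smad4* -0.52 and *Skil* -0.47). Of all genes tested, 5.91% were then called higher and 18.7% lower. Genes called higher made up 55.05% of calls with TMM and 24.05% with total counts. The shift was -0.05 in WT-tFCI against WT-Sham, 0.12 in miKO-tFCI against miKO-Sham and -0.10 in miKO-tFCI against WT-tFCI, and the share called higher went from 58.04% to 67.8% in miKO after tFCI and from 45.5% to 30.2% in miKO-tFCI against WT-tFCI. In the interaction of genotype and surgery, given below, the shift was 0.17 and the share called higher went from 32.8% to 51.1%.

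Markers of border-associated macrophages summed to 580.3 to 715 CPM in WT-Sham and 1431 to 1669 in miKO-Sham, with 2 of 10 called higher and none at 0 in either group. Most of this sum was *Stab1* (583, 505 and 445 CPM in WT-Sham, 1498, 1576 and 1068 in miKO-Sham), named here after its values were seen. *Mrc1*, the mannose receptor gene and another marker of the list, also named after its values were seen, had 36.4, 32.7 and 42.8 CPM in WT-Sham and 19.6, 17.5 and 81.7 in miKO-Sham, so that miKO-Sham replicates 1 and 2 were below and replicate 3 above WT-Sham. *Folr2*, a further marker of the list named after its values were seen, had 5.53, 7.62 and 6.16 CPM in WT-Sham and 37.5, 34.3 and 47.9 in miKO-Sham, so that all 3 miKO-Sham libraries were above WT-Sham, as for *Stab1*. Dendritic cell markers summed to 50.95 to 84.2 CPM in miKO-Sham against 275 to 328 in WT-Sham, with *Ccl17* at 0 in WT-Sham. Of 8 tested, 3 were called lower and 1 higher. Most of the WT-Sham sum was *Fscn1*, named here after its values were seen. It had 2257, 2114 and 2345 counts in WT-Sham and 199, 202 and 418 in miKO-Sham. Among 10 microglia markers, 4 were called lower and 1 higher (median log2 fold change -0.49), and among 10 astrocyte markers 1 lower and 2 higher. Monocyte/macrophage, neutrophil and neuron markers each had 1 call, higher, and B cell and fibroblast markers 1 each, lower. Oligodendrocyte and endothelial markers had 1 call in each direction, and T cell markers none. The part of these markers in the differences was not tested.

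**Figure D3:**
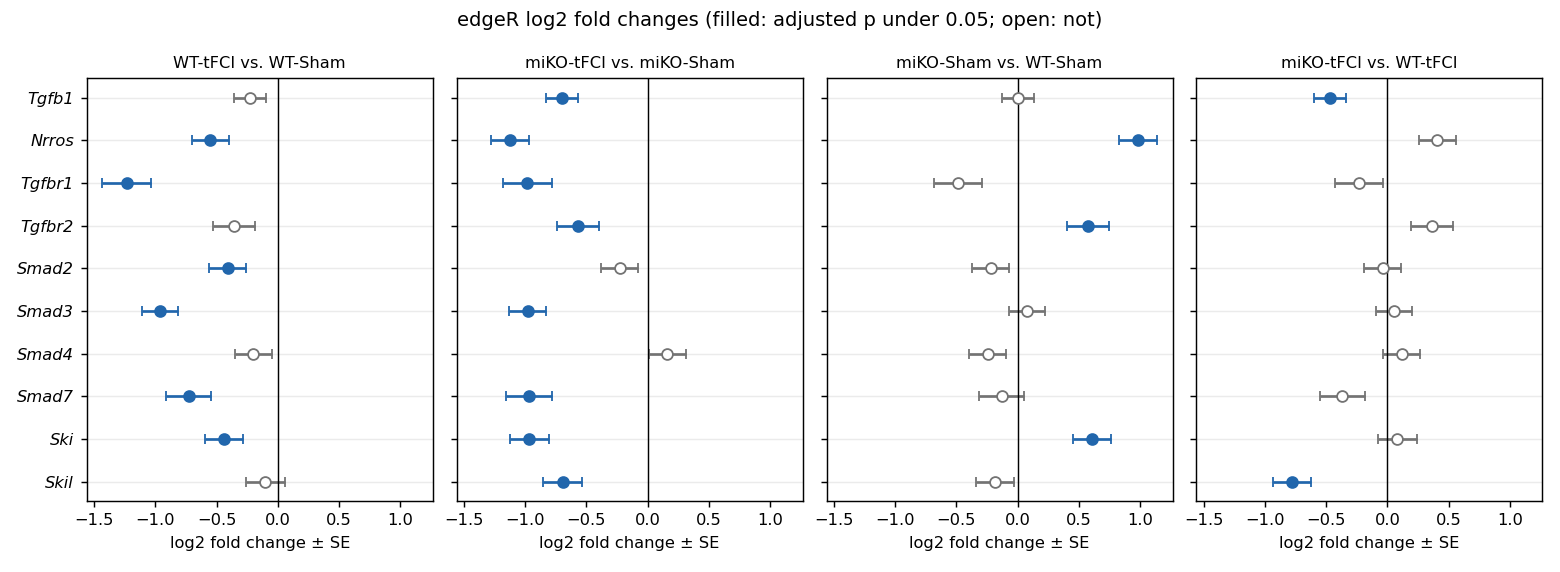
Log2 fold change ± SE of the 10 genes in 4 comparisons, from edgeR over all 12 libraries with batch as a term. Filled points have an adjusted p under 0.05. The filled points are below 0 after tFCI in both genotypes and in miKO-tFCI against WT-tFCI, and above 0 in miKO-Sham against WT-Sham.

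After tFCI, miKO microglia had less *Skil* and *Tgfb1* than WT microglia. Compared with WT-tFCI, 2 of the 10 genes were called lower in miKO-tFCI and none higher, against 5.4% of all genes tested called lower and 4.5% called higher. DESeq2 called 2 lower and 1 higher (*Nrros*), and 3 had an unadjusted edgeR p under 0.05, again without a share of all genes for these counts. The median log2 fold change of the 10 genes was 0.01, against 0.04 over all genes tested. *Skil*, whose product represses SMAD-bound genes, was at 154 ± 42.4 CPM in miKO-tFCI and 263 ± 43.7 in WT-tFCI, 0.582 times as high, and its highest miKO-tFCI library (191) lay below the lowest WT-tFCI library (214). Its log2 fold change was -0.78 ± 0.16 (adjusted p = 0.00624), with -0.99 in batch 1 and -0.70 in batch 2, and it was called under all 21 alternatives (-0.92 to -0.65). *Tgfb1* was at 136 ± 16.4 CPM in miKO-tFCI and 188 ± 16.1 in WT-tFCI without overlap (log2 fold change -0.47 ± 0.13, adjusted p = 0.0363). Its call was lost without WT-Sham replicate 2, any of the WT-tFCI libraries, or miKO-tFCI replicate 1 or 3 (adjusted p 0.0514 to 0.175). It was also lost in batch 2 alone (adjusted p = 0.105) and with no batch term (adjusted p = 0.0642).

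*Nrros* was at 325 ± 82.7 CPM in miKO-tFCI and 243 ± 35.7 in WT-tFCI and was not called (log2 fold change 0.41 ± 0.15, adjusted p = 0.108). *Tgfbr2* was at 303 ± 98.7 and 229 ± 4.14 CPM and was not called either (0.36 ± 0.17, adjusted p = 0.194). In *Nrros*, miKO-tFCI replicate 1 lay among the WT-tFCI values, in *Tgfbr2* it lay below them, and replicates 2 and 3 were above all WT-tFCI libraries in both genes. Without miKO-tFCI replicate 1, *Nrros* and *Tgfbr2* were called higher (log2 fold changes 0.54 and 0.56, adjusted p = 0.03503 and 0.0254), whereas over 21 alternatives their adjusted p ran from 0.0341 to 0.369 and from 0.0177 to 0.553. *Tgfbr1*, *Smad2*, *Smad3*, *Smad4*, *Smad7* and *Ski* were not called (log2 fold changes -0.37 to 0.12, adjusted p 0.225 to 0.902). In the same comparison 5 of 10 microglia markers and 2 of 4 tested B cell markers were called lower. Called higher were 4 of 10 monocyte/macrophage, 3 of 10 border-associated macrophage and 4 of 7 tested fibroblast markers. Of neutrophil markers 6 of 9 tested were higher and 1 lower, and of astrocyte markers 3 of 10 higher and 1 lower. Dendritic cell and oligodendrocyte markers had 1 call in each direction, and endothelial, neuron and T cell markers none. Border-associated macrophage markers summed to 709, 980 and 1064 CPM in WT-tFCI and 972, 2193 and 2157 in miKO-tFCI (replicates 1 to 3). The part of these markers in the differences was not tested.

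Whether the response to tFCI differed between genotypes was tested as the interaction of genotype and surgery. By edgeR and by DESeq2 none of the 10 genes was called, against 1.25% of all genes tested called higher and 2.57% called lower by edgeR. At an unadjusted edgeR p under 0.05, a looser limit for which no share of all genes is given, there were 4 genes. These were *Skil* (interaction on the log2 scale -0.59 ± 0.22, adjusted p = 0.1697), *Nrros* (-0.58 ± 0.22, adjusted p = 0.1704), *Tgfb1* (-0.47 ± 0.19, adjusted p = 0.191) and *Ski* (-0.53 ± 0.22, adjusted p = 0.232), all with the larger fall in miKO. With total counts in place of TMM, *Nrros* and *Tgfb1* had interactions of -0.41 and -0.30. Over 20 alternatives, that one included, *Skil* ran from -0.72 to -0.39 and *Ski* from -0.65 to -0.34. The other members had interactions of -0.24 to 0.36 with standard errors of 0.21 to 0.28. A difference between the genotypes in the fall of these genes was thus not shown.

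The wider pathway was described with 125 further genes of TGF-beta, activin and BMP signalling in 7 roles, of which 114 passed the filter on low counts. After tFCI, 52 were called higher and 15 lower in WT (median log2 fold change 0.51), and 51 higher and 17 lower in miKO (0.60). Of all genes tested, 23.5% and 15.4% were called higher and lower in WT, and 24.5% and 17.7% in miKO, so that the share of wider genes called lower was near that of all genes in WT and in miKO. In miKO-Sham against WT-Sham, 10 were called higher and 21 lower (9 and 42 with total counts in place of TMM), and in miKO-tFCI against WT-tFCI, 12 higher and 16 lower (11 and 20). Over all genes tested, 9.94% and 8.12% were called higher and lower in the first and 4.5% and 5.4% in the second. For genes named below, values are given for some of the comparisons in which they were called, not for all. A comparison left without a value may still hold a call. Genes that are no members and are named here had 20 calls in miKO-Sham against WT-Sham, of which 19 held without miKO-Sham replicate 1 (not *Junb*) and 18 without replicate 2 (not *Junb* or *Acvr2b*). They had 29 calls after tFCI in miKO, of which 26 held without replicate 1 (not *Acvr2b*, *Eng* or *Fcrls*) and all held without replicate 2. Marker lists of other cells moved in these comparisons as described above, not all in the same direction, and their part was not tested.

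Among 14 genes tested of the ligand list, which also holds the protease gene *Bmp1*, 9 were called higher after tFCI in WT, 9 in miKO, and none lower in either. The shares of all genes called higher were 23.5% in WT and 24.5% in miKO, and those called lower 15.4% and 17.7%. *Gdf15*, a stress-induced member of the ligand family, had 8.17, 5.15 and 8.72 CPM in WT-Sham and 33.7, 41.1 and 23.8 in miKO-Sham, without overlap (log2 fold change 2.16 ± 0.27, adjusted p = 5.46e-05). It had 29.7, 39.5 and 42.3 CPM in WT-tFCI and 38.8, 78.7 and 65.7 in miKO-tFCI. The miKO-Sham libraries were thus in the range of the WT-tFCI libraries or just below it. *Inhba*, which encodes a subunit of activin, was low throughout, with at most 0.416 CPM in any sham library, 0.731 to 1.962 in WT-tFCI and 2.72 to 6.71 in miKO-tFCI, where it was called higher than in WT-tFCI (1.76 ± 0.53, adjusted p = 0.0477) in a call lost without any of 9 of the 12 libraries (adjusted p up to 0.216). *Bmp1*, a procollagen protease, had 11.7, 11.7 and 9.85 CPM in WT-Sham, 4.86, 1.39 and 2.56 in miKO-Sham, 24.98 to 33.6 in WT-tFCI and 22.9 to 56.2 in miKO-tFCI.

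Of 16 genes tested that release or activate latent TGF-beta, 12 were called higher and none lower after tFCI in WT, and 11 higher and 2 lower in miKO. Among all genes, 23.5% and 15.4% were called higher and lower in WT, and 24.5% and 17.7% in miKO. *Itgb5*, an integrin subunit and the most abundant gene of this role, had 1562, 2006 and 2190.3 CPM in WT-Sham, 1586, 1493 and 1873 in miKO-Sham, 1679.8, 1741 and 1860.5 in WT-tFCI and 699, 1210.4 and 1255 in miKO-tFCI, where it was below all other libraries. It was called lower in miKO after tFCI (-0.68 ± 0.17, adjusted p = 0.00498) and lower in miKO-tFCI than in WT-tFCI (-0.77 ± 0.17, adjusted p = 0.0108). *Itgb1* rose in both genotypes after tFCI (0.45 ± 0.15 and 1.00 ± 0.16, adjusted p = 0.0337 and 0.000168), in WT not without WT-Sham replicate 1 or 2 or WT-tFCI replicate 1 or 2 (adjusted p up to 0.1697). *Itgb3* had 60.5, 63.97 and 60.5 CPM in WT-Sham and 149.7, 142 and 126 in miKO-Sham, higher without stroke (1.18 ± 0.17, adjusted p = 0.000148). *Itgav*, whose product pairs with those of *Itgb3* and *Itgb5* to bind latent TGF-beta, was called in none of the 4 comparisons (log2 fold changes -0.23 to 0.20).

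Outside the integrins, *Thbs1* (thrombospondin-1, an activator of latent TGF-beta) was at 5.95 to 6.498 CPM in WT-Sham, 20.5 to 132 in WT-tFCI, 4.02 to 7.43 in miKO-Sham and 73.9 to 291 in miKO-tFCI, with replicate 1 highest in both tFCI groups. *Furin*, a protease that processes the TGF-beta precursor, rose in WT after tFCI (0.71 ± 0.14, adjusted p = 0.00101) and was not called in miKO (0.28 ± 0.14, adjusted p = 0.115; interaction -0.43 ± 0.19, adjusted p = 0.266). *Mmp14*, a membrane-bound metalloproteinase, had 30.8, 41.5 and 41.7 CPM in WT-Sham but 3.33, 2.64 and 9.09 in miKO-Sham (-2.90 ± 0.39, adjusted p = 8.83e-05), and 62.7 to 81.3 in WT-tFCI and 51.7 to 117 in miKO-tFCI. *Ltbp4*, a latent TGF-beta binding protein, had low counts, with 0.224 to 0.721 CPM in WT-Sham and 1.11 to 2.64 in miKO-Sham (1.81 ± 0.50, adjusted p = 0.0211), a call lost without WT-Sham replicate 1 or 2 or miKO-Sham replicate 3 (adjusted p up to 0.115). *Mmp9* was called higher in miKO-Sham (3.36 ± 1.01, adjusted p = 0.0309) with 3.19, 1.804 and 31.4 CPM against 1.803, 1.46 and 0.923 in WT-Sham, so that replicate 3 carried most of the difference. The call was lost without replicate 3 or without any of the WT-Sham libraries (adjusted p up to 0.574).

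Among the 11 other receptor genes tested, 3 were higher and 3 lower after tFCI in WT, and 4 higher and 2 lower in miKO, against 23.5% and 15.4% of all genes in WT and 24.5% and 17.7% in miKO called higher and lower. The type I receptor *Acvrl1* (ALK1) and its co-receptor *Eng* (endoglin) moved in opposite directions without stroke. *Acvrl1* had 30.4, 37.3 and 30.2 CPM in WT-Sham and 118, 108 and 101 in miKO-Sham (1.74 ± 0.17, adjusted p = 6.69e-06). *Eng* had 86.3, 72.9 and 76.6 CPM in WT-Sham and 11.7, 15.8 and 18.4 in miKO-Sham (-2.34 ± 0.21, adjusted p = 2.59e-06). Neither gene overlapped between the sham groups, and the same directions were called in miKO-tFCI against WT-tFCI (0.93 ± 0.17 and -0.82 ± 0.20, adjusted p = 0.00335 and 0.0187). That of *Eng* after tFCI was lost without any of the WT-tFCI libraries or without miKO-tFCI replicate 2 or 3 (adjusted p up to 0.07904). *Acvr2b*, an activin type II receptor, fell after tFCI in WT and in miKO (-1.43 ± 0.28 and -0.99 ± 0.29, adjusted p = 0.00101 and 0.01301), in miKO not without miKO-Sham replicate 1 (adjusted p = 0.0501). *Bmpr2*, the BMP type II receptor, was called lower in miKO-tFCI than in WT-tFCI (-0.72 ± 0.21, adjusted p = 0.0456), a call lost without any of 6 libraries, among them WT-tFCI and miKO-tFCI replicates 2 and 3 (adjusted p up to 0.178).

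Of the 4 other SMADs tested, *Smad1*, which carries BMP signals and is named after its values were seen, fell after tFCI in WT (-0.94 ± 0.15, adjusted p = 0.000262) and was lower in miKO-Sham than in WT-Sham (-0.86 ± 0.15, adjusted p = 0.00111). Among 27 modulators of receptors and SMADs tested, 8 were higher and 3 lower after tFCI in WT, and 6 and 1 in miKO, against 23.5% and 15.4% of all genes in WT and 24.5% and 17.7% in miKO called higher and lower. *Dcn* (decorin, which binds TGF-beta) was at 0.721 to 1.01 CPM in WT-Sham and 87.97 to 376 in WT-tFCI. *Fstl1* was at no more than 1.805 CPM in any sham library, 16.6 to 65.9 in WT-tFCI and 42.98 to 169.7 in miKO-tFCI. *Dcn* is also on the fibroblast list, and both genes were highest in replicate 1 of each tFCI group.

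Called nuclear partners of SMADs were mostly lower. Of 21 tested, 7 were lower and 2 higher after tFCI in WT, and 11 lower and 3 higher in miKO. The shares of all genes called lower were 15.4% in WT and 17.7% in miKO, and those called higher 23.5% and 24.5%. *Jun* was at 4715 to 6440.1 CPM in WT-Sham, 2619 to 3660.4 in miKO-Sham, 1425 to 1798 in WT-tFCI and 634 to 994 in miKO-tFCI. It was called lower without overlap after tFCI in WT (-1.82 ± 0.16) and miKO (-1.84 ± 0.16) and in miKO without (-0.96 ± 0.16) and with tFCI (-0.97 ± 0.16). *Fos*, its AP-1 partner, was called lower in the same comparisons (-1.44, -1.38, -0.64 and -0.58), in the last not without any of the tFCI libraries (adjusted p up to 0.1401). *Tgif2*, a co-repressor that binds SMADs, had 32.5, 33.4 and 30.9 CPM in WT-Sham and 7.77, 4.99 and 6.66 in miKO-Sham (-2.32 ± 0.20, adjusted p = 1.59e-06), and 20.7 to 21.2 in WT-tFCI and 3.71 to 6.19 in miKO-tFCI (-2.11 ± 0.20, adjusted p = 1.83e-05). Its paralog *Tgif1* was higher in miKO-Sham, at 184 to 215 CPM against 99.8 to 122 (0.91 ± 0.15, adjusted p = 0.000494). *Maf* and *Sall1*, transcription factors expressed in microglia, fell after tFCI in both genotypes (-1.09 and -1.19 in WT, -1.65 and -1.52 in miKO). *Runx3* was called higher in miKO-tFCI than in WT-tFCI (2.28 ± 0.59, adjusted p = 0.0245) although its values, 29.2, 3.14 and 2.595 CPM against 7.78, 0.231 and 0.366, overlapped before adjustment for batch. Its call was lost without WT-tFCI replicate 2 or 3 or miKO-tFCI replicate 1 (adjusted p up to 0.171).

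Of 21 genes known as TGF-beta or BMP targets in other cells, 18 were called higher and 1 lower after tFCI in WT, and 17 higher and 1 lower in miKO, with median log2 fold changes of 2.18 and 3.26. Among all genes, 23.5% and 15.4% were called higher and lower in WT, and 24.5% and 17.7% in miKO. The target called lower was *Junb* in both genotypes (-0.98 and -1.31), named after its values were seen. *Timp1*, an inhibitor of metalloproteinases, had at most 0.481 CPM in any sham library, 16.7 to 88.9 in WT-tFCI and 53.5 to 182 in miKO-tFCI. The collagen gene *Col3a1*, which is on the fibroblast list, had at most 1.41 CPM in any sham library, 49.3 to 221 in WT-tFCI and 152 to 353 in miKO-tFCI. Fibronectin (*Fn1*), on the monocyte/macrophage list, had 0.205 to 3.25 CPM in WT-Sham and 296 to 446 in WT-tFCI, and 2.22 to 12.3 in miKO-Sham and 122 to 358 in miKO-tFCI. *Id2*, an inhibitor of DNA binding, rose after tFCI in both genotypes (1.37 ± 0.16 and 1.33 ± 0.17). It was lower in miKO in both surgeries, with 145, 148 and 109.9 CPM in miKO-Sham against 331 to 437 in WT-Sham (-1.52 ± 0.17, adjusted p = 1.53e-05), and 331 to 348 in miKO-tFCI against 826 to 1124 in WT-tFCI (-1.56 ± 0.17, adjusted p = 4.98e-05). Replicate 1 of each tFCI group had the highest *Timp1*, *Col3a1* and *Fn1* and the lowest *Id2*. The same libraries had the highest fibroblast and endothelial marker sums, and the part of those markers was not tested.

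**Figure D4:**
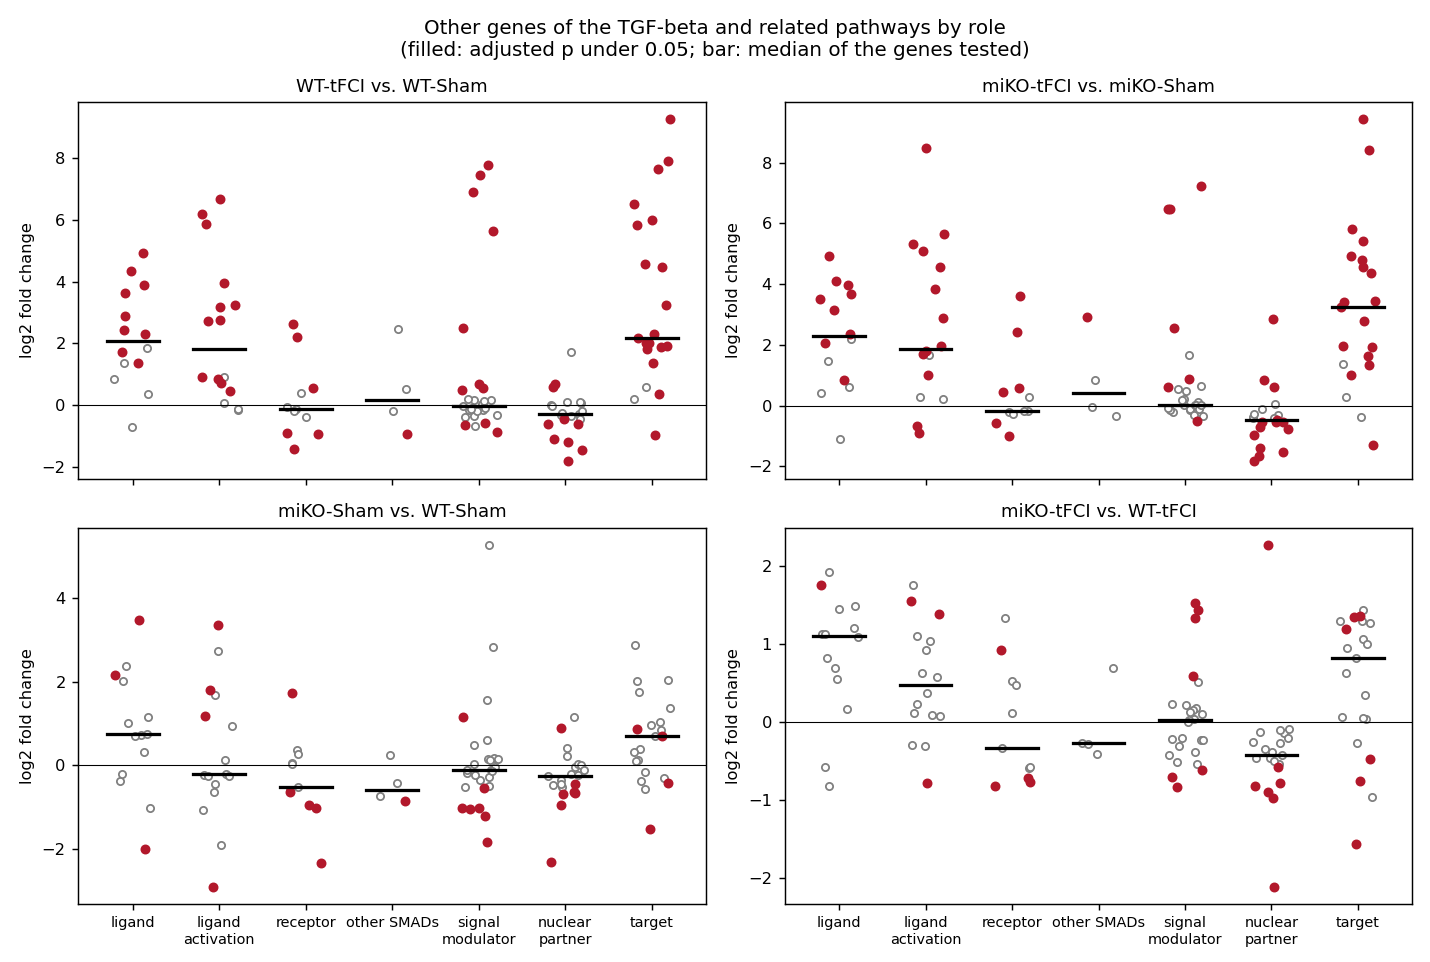
Log2 fold changes of the tested genes of the wider pathway by role in 4 comparisons, with filled points for an adjusted p under 0.05 and a bar at the median. After tFCI the median of the targets was 2.18 in WT and 3.26 in miKO, and that of the nuclear partners -0.28 and -0.48.

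Genes that depend on TGF-beta in microglia were followed as a list of 30, which holds *Tgfbr1* itself and several microglia markers. After tFCI, 20 were called lower and 1 higher in WT (median log2 fold change -0.74) and 26 lower and none higher in miKO (-0.99). Without stroke, 12 were lower and 2 higher in miKO-Sham than in WT-Sham (-0.47), and after tFCI 14 were lower and none higher in miKO than in WT (-0.52). Over all genes tested, 15.4%, 17.7%, 8.12% and 5.4% were called lower in these 4 comparisons, and 23.5%, 24.5%, 9.94% and 4.5% higher. *Cst3* (cystatin C), the most abundant of the list, was at 23233 to 39182 CPM in WT-Sham, 19293 to 21581 in miKO-Sham, 9914 to 12812 in WT-tFCI and 4782 to 6137 in miKO-tFCI, lower in miKO-tFCI than in WT-tFCI (-1.06 ± 0.18, adjusted p = 0.00203). *Csf1r*, the receptor on which microglia depend for survival, fell after tFCI in both genotypes (-0.61 ± 0.18 and -1.11 ± 0.18, adjusted p = 0.01301 and 0.000213). *C1qa* was called in none of the comparisons.

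*Fcrls* was higher in miKO-Sham, with 2734 to 3327 CPM in WT-Sham and 5006 to 5394 in miKO-Sham (0.79 ± 0.17, adjusted p = 0.004197), and fell after tFCI in miKO (-0.58 ± 0.17, adjusted p = 0.0121), though not without miKO-Sham replicate 1 (adjusted p = 0.0877). *Cx3cr1*, another gene of the list, was lower in miKO in both surgeries (-1.68 ± 0.18 and -1.84 ± 0.18, adjusted p = 1.07e-05 and 2.03e-05), but CreER takes the place of an allele of this gene in miKO mice, so that this and the loss of *Hdac3* cannot be told apart. The genotype comparisons of all other genes likewise set CreER carriers against mice without it.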

How the data were processed

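CD45int CD11b+ cells were profiled in 12 libraries of 4 groups with SMART-Seq v4 (an unstranded kit) and paired-end sequencing. Per the submitters' processing notes, FastQC 0.11.9, Trim Galore, HISAT2 2.2.1, SAMtools and HTSeq 1.99.2 were used with mm10 and GRCm38.p6, and the values deposited by the authors are raw read counts per gene, not normalized. The strand setting of the counting is not given in the sources used here. Of all counted reads, 30.7 to 38.5% fell on genes and 45.3 to 52.5% on no feature, which were left out of library sizes. Gene lengths came from the GENCODE annotation of GRCm38, which matched 55141 of 55401 identifiers, and no exon of another annotated gene overlapped a member.

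Counts were fitted with the quasi-likelihood test of edgeR 4.0.16 in R 4.3.3 after its filter on low counts (16451 genes tested) and TMM scaling (factors 0.864 to 1.11), with group and batch as terms, all 12 libraries in 1 fit and Benjamini-Hochberg adjustment over all genes tested. The fit was tested on simulated data. CPM were computed on TMM-scaled library sizes. Lists are described by counts and medians without a test, and comparisons that share a group share its libraries. The members and lists were chosen with earlier results of these data known. Named were all members, up to 3 genes of the wider pathway with the largest rise and fall per comparison among called genes without overlap after batch adjustment and with over 3 counts in a library of each group, ligand, activation and receptor genes of at least 50 CPM, the 5 most abundant genes of the microglial list (a result for this list is not reported here), *Hdac3* and *Cx3cr1*. Other names are marked as chosen after their values were seen. Alternatives were RLE size factors, no filter, at least 10 counts in every library, DESeq2 1.42.0, no batch term, a replicate block, only the groups compared, batch 2 alone, the size limit, leaving out each library and, added after seeing the data, total counts without TMM and leaving out each library for named genes that are no members.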

Additional observations from a re-analysis of the deposited data

Results flagged for a closer look

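The difference between genotypes was not the same after tFCI as after sham surgery in 7 genes of the wider pathway, by the interaction term of edgeR with adjusted p under 0.05. Positive values mean that miKO relative to WT was higher after tFCI than after sham surgery. They were 2.98 ± 0.50 for *Mmp14* (adjusted p = 0.003702), 2.16 ± 0.38 for *Bmp1* (adjusted p = 0.00462) and 1.52 ± 0.29 for *Eng* (adjusted p = 0.00831) on the log2 scale. Negative values were -1.46 ± 0.36 for *Gdf15* (adjusted p = 0.0368), -1.37 ± 0.21 for *Tgif1* (adjusted p = 0.00205), -0.95 ± 0.23 for *Itgb3* (adjusted p = 0.0349) and -0.81 ± 0.21 for *Cdkn1a* (adjusted p = 0.0437), a cell-cycle inhibitor gene of the target list named after its values were seen. Those of *Gdf15*, *Itgb3* and *Cdkn1a* were lost when any of 8, 8 and 9 of the 12 libraries was left out (adjusted p up to 0.107, 0.112 and 0.1696). *Tgif1* rose after tFCI in WT (0.68 ± 0.15) and fell in miKO (-0.69 ± 0.15), and *Eng* fell in WT (-0.93 ± 0.20). In miKO *Eng* was called higher (0.59 ± 0.21) with 11.7, 15.8 and 18.4 CPM in miKO-Sham and 31.7, 21.9 and 17.2 in miKO-tFCI, which overlap before adjustment for batch, and the call was lost without any of 9 of the 12 libraries (adjusted p up to 0.267). Its highest miKO-tFCI value was in replicate 1, the library with the highest endothelial marker sum (487 CPM, against 168 and 167), and the part of these markers was not tested.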

How the results depend on the processing

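948 of the member log2 fold changes under an alternative kept their direction and side of the threshold, 37 lost their call, 21 gained one and 34 changed sign, and the cause was not tested. None of those that changed sign was called with TMM and the batch term. With total counts in place of TMM, *Tgfb1* (-0.27) and *Smad3* (-0.20) in miKO-Sham against WT-Sham, *Smad3* (-0.0497) and *Ski* (-0.0292) in miKO-tFCI against WT-tFCI and *Smad3* in the interaction (0.15) changed sign, and 5 members and 51 wider genes were called in miKO-Sham against WT-Sham in place of 3 and 31. In batch 2 alone, *Tgfb1* in miKO-Sham against WT-Sham (-0.0141), *Smad2* in miKO-tFCI against WT-tFCI (0.0192) and *Tgfbr2* (0.16) and *Smad3* (0.16) in the interaction did. *Tgfb1* in miKO-Sham against WT-Sham was also -0.00561 with no filter, -0.0256 with at least 10 counts in every library and -0.00144 with only the groups compared, and *Smad3* in the interaction was 0.0374 with at least 10 counts.

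Wider genes called in miKO-tFCI against WT-tFCI numbered 28, and 44 with no filter, 18 with at least 10 counts, 11 with no batch term and 51 with only the groups compared. Those in the interaction numbered 7, and 17 with no filter and 3 with no batch term. With at least 10 counts, which left 11607 genes to test, 37 wider genes were called after tFCI in WT and 40 in miKO, in place of 67 and 68. Members called in miKO-tFCI against WT-tFCI fell from 2 to 1 with no batch term and 1 with the size limit of 0.58, which left 3 after tFCI in WT in place of 6.

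Leaving out 1 library at a time gave 3 to 7 members called after tFCI in WT, 7 to 9 in miKO, 1 to 4 in miKO-Sham against WT-Sham, 1 to 3 in miKO-tFCI against WT-tFCI and 0 in the interaction, and 53 to 70, 57 to 71, 24 to 36, 14 to 37 and 4 to 10 wider genes. The lowest wider count in miKO-tFCI against WT-tFCI came without WT-tFCI replicate 2 or 3. The lowest member count came without WT-Sham replicate 1 after tFCI in WT, without WT-Sham replicate 2 or 3 or miKO-Sham replicate 1 in miKO-Sham against WT-Sham, and without WT-Sham replicate 2, any of the WT-tFCI libraries or miKO-tFCI replicate 3 in miKO-tFCI against WT-tFCI. Log2 fold changes in miKO-Sham against WT-Sham then ran from -0.045 to 0.0833 for *Tgfb1* and -0.26 to 0.0419 for *Smad7*, in miKO-tFCI against WT-tFCI from -0.49 to 0.0164 for *Tgfbr1*, -0.20 to 0.0728 for *Smad2*, -0.0685 to 0.20 for *Smad3* and -0.0322 to 0.26 for *Ski*, and in the interaction from -0.15 to 0.13 for *Smad3* and -0.37 to 0.00484 for *Tgfbr2*.

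Replicate 1 marks batch 1 in every group, which the batch term covers, and beyond the batch the numbers were not taken to pair the samples. Of 18 pairs of libraries with the same number, 11 had a correlation of deviations over 0.1 (-0.0607 to 0.666, median 0.129, against -0.07298 for other numbers), and 8 of 12 libraries were closest to their own number. With the replicate block in place of batch, 6, 8, 3, 2 and 0 members were called in the 5 comparisons in the same order, the same counts as with batch. Depth limits the wider genes below 1 CPM, such as *Inhba* and *Ltbp4* in WT-Sham, which rest on few counts.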
